A study of Mus musculus with 31 samples.

Results

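The genes described are 8 pluripotency regulators of mouse embryonic stem (ES) cells, Pou5f1, Sox2, Nanog, Sall4, Klf4, Esrrb, Zfp42 and Lin28a. They were chosen by name and found by position, as every RNA locus that overlaps the gene's interval on mouse build mm9. All 8 were found in all 5 RNA tables compared. They took 74 of 143073 loci in the Srap1 KO table and 16 to 22 of 8882 to 9295 loci in the WT tables. The genes were read against 3715 regions that all 4 WT tables list, of which 3461 (93.2%) were overlapped by a locus of the KO table.

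The study set Srap1 KO ES cells beside WT ES cells that were derived together with them. Srap1 is a SRAP-domain protein, and the series title ties it to the erasure of 5-methylcytosine oxidized by Tet enzymes. Both genotypes were of mixed 129SVxC57/BL6 background and grew on gelatin, in medium with serum, leukemia inhibitory factor (LIF), inhibitors of GSK3β and Mek (2i) and ascorbic acid. Total RNA was depleted of ribosomal RNA, which keeps transcripts that have no poly(A) tail as well as messenger RNA. The KO group has 2 tables that are identical and were counted as 1 sample, and the WT group has 4. The labels name neither the kind of Srap1 allele nor separate clones or cultures. The level of Srap1 itself was not analysed here, so the genotypes rest on the labels.

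ES cells keep the ability to form every tissue of the embryo through a small network of transcription factors that switch on each other's genes and their own. Pou5f1 (Oct4) and Sox2 bind DNA as a pair at many of these genes, and Nanog joins them. Klf4, Esrrb and Zfp42 (Rex1) belong to the naive state of the early epiblast, which LIF and 2i hold in culture: LIF acts through Stat3 on Klf4, and inhibition of GSK3 relieves the repressor Tcf3 (Tcf7l1) at Esrrb. Sall4 is a zinc finger partner of Pou5f1 and Nanog, and Lin28a is an RNA-binding protein that blocks maturation of the let-7 microRNAs.

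The promoters of 3 genes are shown because these genes carry the results that follow. Nanog was called higher in KO, Klf4 was called lower, and the level of Zfp42 differed most between the WT tables. Each window covers 300 bases around a gene start in RefSeq, most of them before it, is written 5′ to 3′ along the gene, and has its position on build GRCm38.p6, not mm9. The first of 2 Nanog windows is at chr6:122707239-122707538 on the plus strand, that of Klf4 at chr4:55532426-55532725 on the minus strand and that of Zfp42 at chr8:43306960-43307259 on the minus strand. Capitals mark the motifs named below the windows, on either strand.
Nanog: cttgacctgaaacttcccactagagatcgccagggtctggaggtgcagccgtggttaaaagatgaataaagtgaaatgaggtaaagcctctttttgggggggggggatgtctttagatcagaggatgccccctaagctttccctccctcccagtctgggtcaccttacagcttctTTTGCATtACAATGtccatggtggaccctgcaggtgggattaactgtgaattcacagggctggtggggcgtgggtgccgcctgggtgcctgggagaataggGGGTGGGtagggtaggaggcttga
Klf4: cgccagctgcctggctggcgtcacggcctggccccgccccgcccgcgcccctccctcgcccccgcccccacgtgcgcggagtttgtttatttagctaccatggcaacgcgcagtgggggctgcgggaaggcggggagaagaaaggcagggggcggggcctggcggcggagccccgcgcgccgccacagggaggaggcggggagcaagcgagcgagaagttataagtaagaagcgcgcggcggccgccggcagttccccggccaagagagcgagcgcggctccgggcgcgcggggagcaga
Zfp42: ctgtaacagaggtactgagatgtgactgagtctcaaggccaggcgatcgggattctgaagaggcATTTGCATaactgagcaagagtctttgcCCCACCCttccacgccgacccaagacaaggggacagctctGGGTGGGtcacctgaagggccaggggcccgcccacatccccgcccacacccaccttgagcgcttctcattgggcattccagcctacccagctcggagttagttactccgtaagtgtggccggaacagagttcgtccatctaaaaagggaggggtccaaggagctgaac
The motifs were searched on both strands in all 10 RefSeq windows of 7 of the genes (Sall4 not included) and in 32851 promoter windows. The POU octamer ATGCAAAT stands in the Zfp42 window and in 1.74% of all windows. Its 7-base part TTTGCAT, which overlaps it there, stands in the Nanog, Sox2 and Zfp42 windows and in 4.63% of all. In the Nanog window TTTGCAT begins 75 bases before the gene start, and the SOX-type motif ACAATG begins 67 bases before it. ACAATG is in 12.6% of all windows and also in windows of Pou5f1, Esrrb and Lin28a, and the longer AACAATG, in 3.78%, stands in 1 Pou5f1 window, where it overlaps ACAATG. The KLF motif GGGTGGG, in 17.5% of all windows, stands in 6 of the 10, those of Nanog, Esrrb and Zfp42 and 1 of 2 Pou5f1 windows. The 2 Nanog windows overlap and share the same copy of it, so the 6 are not separate sites. The ESRRB motif AAGGTCA (4.72% of all) and TATAAA (13.6%) stand in none of the 10, and the Klf4 window holds none of the 7 motifs.

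RNA levels are the authors' FPKM (a fragment number divided by transcript length and library size) with the lower and upper bounds deposited beside them, and values of the WT tables are given in the order WT 1 to WT 4. A gene's level in a table is that of its leading locus, the one sharing most bases with the interval. Loci were assembled in each table on its own, so their ends differ. The KO table listed 143073 loci with a median width of 486 bases and the 4 of WT listed 8882 to 9295 loci with a median of 1977 to 2039 bases. The bounds imply 10804715 fragments in KO and 895779 to 926460 in WT, so KO values are the more precise. A single locus on chromosome 17 (39979939 to 39985777) held 3.51% of these fragments in KO and 61.45% to 62.23% in WT. Where locus ends matched, WT tables differed by about their counting error. Over the 77 to 94 loci of matching ends per pair, of 8882 to 9295 listed, the median difference was 0.742 to 1.124 of what that error gives. In each pair 1 to 3 of these loci lay more than 4 standard errors apart. The leading loci of Klf4, Esrrb and Zfp42, whose ends differ between WT tables, lay further apart, with some WT bounds that did not overlap. With 1 KO sample, and WT tables this close at loci of matching ends, no p-value is given. A gene was called when its KO level lay outside the range of the 4 WT tables and differed from their mean by at least 1 on the log2(FPKM + 1) scale, that is 2-fold, a scale that understates the change of low genes.

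By this rule 3 of the 8 genes were called, 1 higher in KO (Nanog) and 2 lower (Klf4 and Esrrb). Of the 3461 regions measured in the same way 32.4% were called, 12.8% higher and 19.6% lower, so the genes' count is near the background. With quantile normalization the split of called regions was 389 higher and 390 lower, against 442 and 679 on the deposited scale. The log2 difference had a median of 0.19 over the 8 genes and of -0.10 over the regions, whose quartiles were -0.79 and 0.53. A difference below 0.5 in size was found for 4 of the 8 genes and for 38.0% of the regions. Depth, locus width and the share of the chromosome 17 locus all moved with genotype, and their part in any difference was not tested. In bulk RNA, fewer cells of a type and less RNA per cell cannot be told apart.

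**Figure D1:**
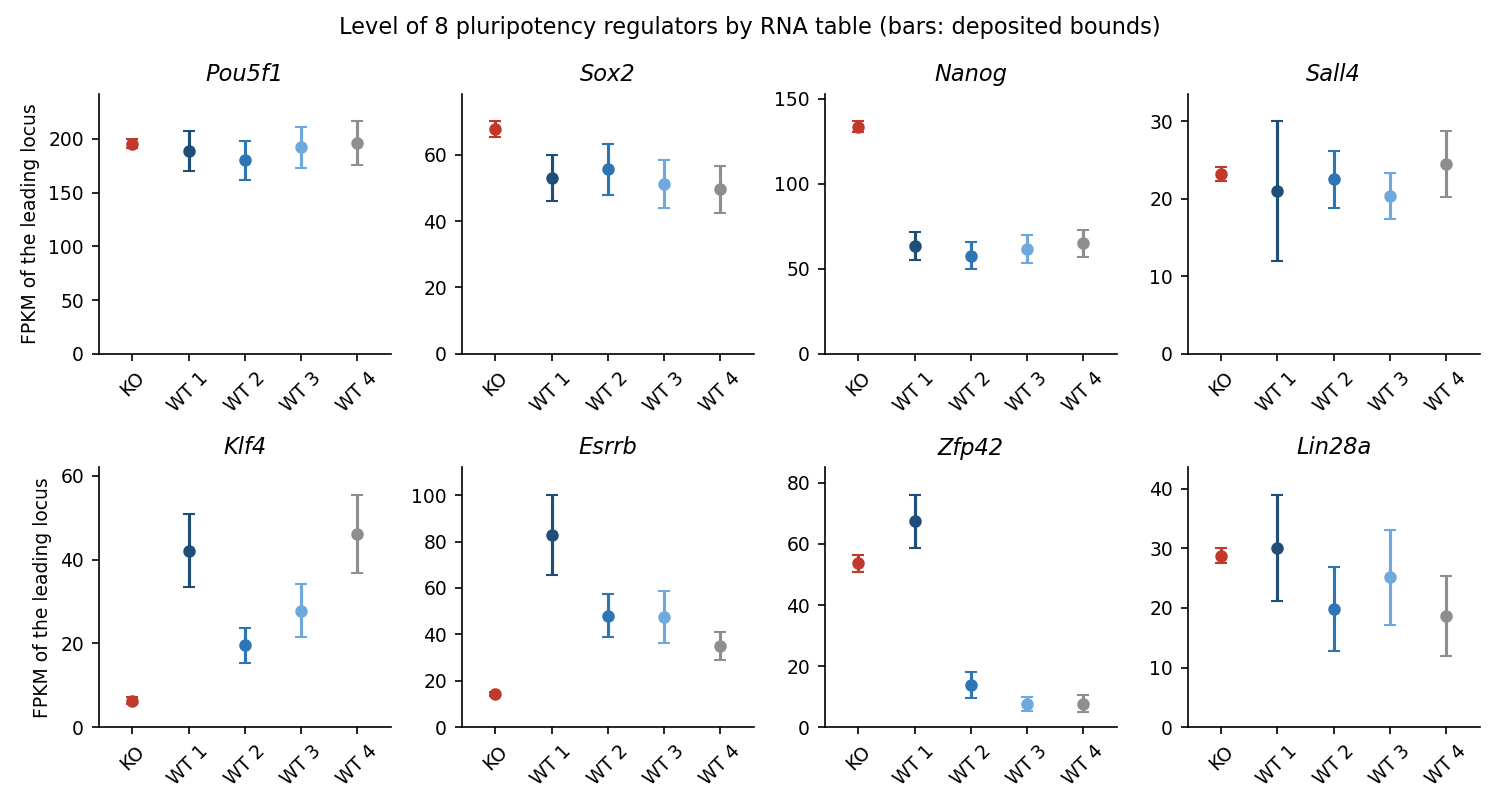
Level of each of the 8 genes (FPKM of the leading locus, linear axis from 0) in the Srap1 KO table and the 4 WT tables, with bars for the deposited bounds. Nanog in KO lies above all WT tables, Klf4 and Esrrb in KO lie below all of them, and Zfp42 in KO lies inside the WT range, which runs from 7.63 to 67.4 FPKM.

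Of the 3 core factors, Pou5f1 had similar levels in both genotypes, Sox2 stood slightly higher in KO as deposited (not with quantile normalization) and under the size required for a call, and Nanog was about 2 times as high in KO. Pou5f1 (chromosome 17, 35642900 to 35647800), the POU factor without which no ES cell identity is kept, had 196 FPKM in KO (bounds 191 to 199.8). The WT values, for WT 1 to WT 4 in turn, were 189 (170.0 to 208), 180.2 (162 to 198), 192 (173 to 211) and 196 FPKM (176 to 216). KO lay inside the WT range, and the log2 difference was 0.05 as deposited and -0.21 with quantile normalization. Pou5f1 was the highest of the 8 genes in all 5 tables, with bounds clear of the next gene's, and ranked at percentile 97.7 of the regions in KO and 97.8 to 98.0 in WT.

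Sox2 (chromosome 3, 34548900 to 34551400), the HMG-box partner of Pou5f1, had 67.8 FPKM in KO (65.5 to 70.1). The 4 WT tables had 53.0 (46.0 to 60.0), 55.6 (47.9 to 63.4), 51.2 (43.9 to 58.4) and 49.6 FPKM (42.6 to 56.6). The KO bounds lay above all 4 WT bounds, but the difference of 0.37 on the log2 scale, a ratio of 1.30 to the WT mean, was under the size required. With quantile normalization it was -0.01, and by rank Sox2 stood at percentile 89.8 of the regions in KO and 88.8 to 91.2 in WT.

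Nanog (chromosome 6, 122657500 to 122664700), the homeodomain factor whose level varies from cell to cell in serum cultures, had 134 FPKM in KO (130.4 to 137). Levels in WT 1 to WT 4 were 63.4 (55.2 to 71.5), 57.7 (49.7 to 65.7), 61.7 (53.6 to 69.8) and 65.1 FPKM (57.0 to 73.1). All 4 WT tables lay close together, and none reached the KO bounds. The log2 difference was 1.10, a ratio of 2.16 to the WT mean and of 2.05 to 2.31 to single WT tables. With quantile normalization it was 0.70, and the call was lost. Nanog, like Pou5f1, had 1 locus in each table, and 6891 of the 7201 bases of its interval were covered in all 5 tables as 1 stretch. Against Pou5f1 in the same table, which needs no scaling between tables, Nanog stood at 68.3% in KO and at 32.0% to 33.6% in WT. This ratio still depends on the transcript length used in each table. Implied fragments at Nanog and Pou5f1 were 6985 and 8271 in KO. For WT 1 to WT 4 they were 242 and 400, 209 and 391, 231 and 412, and 260 and 381. By fragments the KO and WT ratios lay closer together than by FPKM. Its rank among the regions was percentile 96.4 in KO and 91.6 to 93.5 in WT.

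The bounds of KO lay above those of all 4 WT tables for 2 of the 8 genes, Sox2 and Nanog, and for 13.7% of the regions. They lay below them for 2, Klf4 and Esrrb, and for 10.9% of the regions. RefSeq names 5 related copies of Pou5f1, 2 pseudogenes of Nanog and 1 of Zfp42, and reads shared with such copies could have been split, so the levels of these genes are uncertain to that extent. The tables give no strand for a locus, so reads of overlapping antisense transcripts cannot be told apart from the genes' own.

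**Figure D2:**
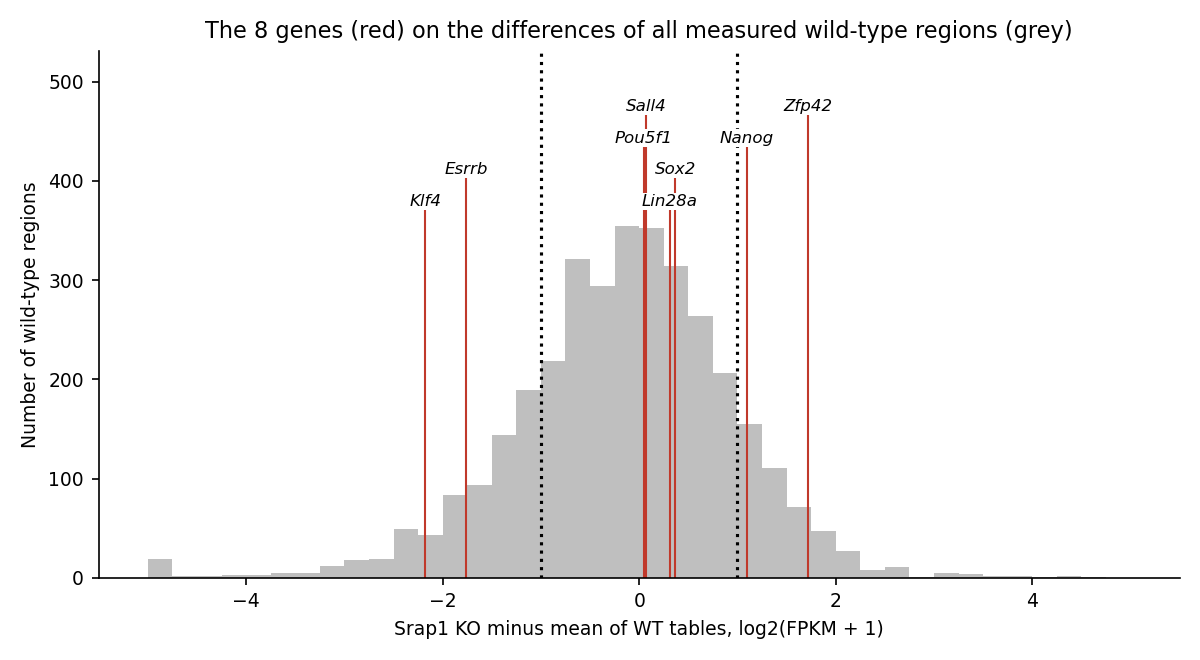
Number of WT regions (grey bars) by their difference, Srap1 KO minus the mean of the WT tables in log2(FPKM + 1), with the 8 genes as red lines; dotted lines mark -1 and 1, and differences beyond 5 in size stand in the end bars. Klf4, Esrrb, Nanog and Zfp42 lie beyond the dotted lines and the other 4 genes between them, while 25% of the regions lie below -0.79 and 25% above 0.53.

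Among the partners and naive-state factors, Sall4 had a similar level in both genotypes, Klf4 and Esrrb were called lower in KO, and Zfp42 gave no call. Sall4 (chromosome 2, 168573000 to 168593000) had 23.1 FPKM in KO (22.2 to 24.0). In WT 1 to WT 4 the levels were 21.0 (12.0 to 30.0), 22.5 (18.8 to 26.2), 20.4 (17.4 to 23.3) and 24.5 FPKM (20.2 to 28.7). KO lay inside the WT range, and the log2 difference was 0.07. Over the 4 stretches covered in all tables, it was between -0.14 and 0.38. The leading locus held 98.8% of the fragments implied at Sall4 in KO, but 12.4% in WT 1 and 71.7% to 100% in WT 2 to WT 4.

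Klf4 (chromosome 4, 55540000 to 55545400), a zinc finger factor downstream of LIF and one of the factors used to reprogram fibroblasts, had 6.33 FPKM in KO (5.54 to 7.12). The WT tables had, from WT 1 to WT 4, 42.1 (33.4 to 50.8), 19.5 (15.3 to 23.7), 27.8 (21.4 to 34.1) and 46.1 FPKM (36.8 to 55.4). KO lay below all WT tables and its bounds were clear of theirs. The log2 difference was -2.18, and single WT tables put the ratio between 0.137 and 0.324. The KO table lists another locus with the same ends, 55542166 to 55545333, at 3.22 FPKM. The leading locus held 30.0% of the fragments implied at Klf4 in KO and 70.6% to 82.1% in WT.

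The difference at Klf4 was not even along the gene, which is read on the minus strand. In the 2052 bases nearer its start (55542805 to 55544856) the levels were 6.33 FPKM in KO and 19.5 to 46.1 FPKM in WT. In the 992 bases at its end (55540169 to 55541160) they were 21.3 FPKM in KO and 15.0 to 19.5 FPKM in WT, a log2 difference of 0.35. The 19.5 FPKM in both stretches is that of a single WT 2 locus, 55540013 to 55545106, so WT 2 gives no separate levels for them. Over all bases covered in all 5 tables, Klf4 averaged 11.2 FPKM in KO and 33.8, 19.5, 23.6 and 36.1 FPKM in the WT tables. That difference, -1.22, was still called lower. With the highest locus of at least 300 bases in place of the leading one, which in KO is the piece at the gene's end, the difference was -0.57 and the call was lost.

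Esrrb (chromosome 12, 87702000 to 87862600), an orphan nuclear receptor, had 14.3 FPKM in KO (13.5 to 15.0). WT 1 to WT 4 had 82.8 (65.5 to 100.1), 48.0 (38.8 to 57.3), 47.4 (36.3 to 58.6) and 34.9 FPKM (28.8 to 40.9). KO lay below all WT tables and its bounds were clear of theirs. The log2 difference was -1.76, and the WT tables were themselves far apart, from 34.9 to 82.8 FPKM.

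Esrrb is the longest of the 8 genes, and the KO table cut it into 52 loci, 23 of them shorter than 300 bases, against 2 to 4 loci in WT. Its leading locus held 33.3% of the fragments implied at Esrrb in KO and 39.6% to 66.0% in WT. By the widest locus at each base, the difference shrank toward the gene's end. It was -1.76 over 39961 bases (87811095 to 87851055), -1.27 over the next 9019 bases, -0.30 over the following 1311 and -0.16 over the last 893. KO had 14.3 FPKM in the first stretch and 20.5 FPKM, that of a single locus of 11891 bases, in all later ones. Each WT table had a single value, that of its leading locus, over the first stretch and the next. The differences thus follow which loci cover a stretch and are not separate levels of it. In the last stretch KO had 20.5 FPKM (19.4 to 21.6). WT 1 to WT 4 had 25.5 (20.7 to 30.4), 21.9 (17.5 to 26.4), 21.3 (16.9 to 25.6) and 23.5 FPKM (15.5 to 31.6). KO was just below every WT table there, but its bounds overlapped those of each. If the highest locus was taken in place of the leading one, a KO locus 62 bases wide at 4274 FPKM turned the difference to 6.37. With loci under 300 bases left out, the highest locus gave -1.27.

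Zfp42 (chromosome 8, 44380400 to 44392400), a zinc finger gene widely used as a marker of naive ES cells, had 53.6 FPKM in KO (50.8 to 56.5). In the 4 WT tables the values were 67.4 (58.8 to 76.0), 13.9 (9.61 to 18.1), 7.63 (5.45 to 9.81) and 7.71 FPKM (4.90 to 10.5). KO lay below WT 1 and above the other 3, so the difference of 1.72 was not called; without WT 1 it was 2.40 and was called higher.

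The WT tables differed at Zfp42 in which piece of the gene was the leading locus. In WT 1 it was the piece at the gene's end (44380424 to 44382444), and in the other 3 a piece nearer its start. The leading locus held 54.5% of the fragments implied at Zfp42 in KO, 64.8% in WT 1 and at most 12.1% in WT 2 to WT 4. Where all 5 tables cover the end of the gene (44380426 to 44382101, 1676 bases), Zfp42 had 53.6 FPKM in KO and 67.4, 76.4, 61.2 and 70.0 FPKM in WT. By its widest locus KO lay below every WT table there, with a log2 difference of -0.35. The KO table lists another locus over this stretch, 44378852 to 44382722, at 12.3 FPKM, which that value leaves out. In the 7 other stretches covered in all tables the locus of 53.6 FPKM in KO stood against 7.63 to 28.8 FPKM in WT, and the differences were 1.46 to 2.42. The leading KO locus spans 12610 bases, so a single value stands for all these stretches. Over all shared bases the averages were 53.6 FPKM in KO and 30.8, 33.0, 29.4 and 31.6 FPKM in WT, a difference of 0.76 that was not called, with the 4 WT tables close together. Weighting every locus by the bases it shares with the interval gave 1.06, called higher.

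**Figure D3:**
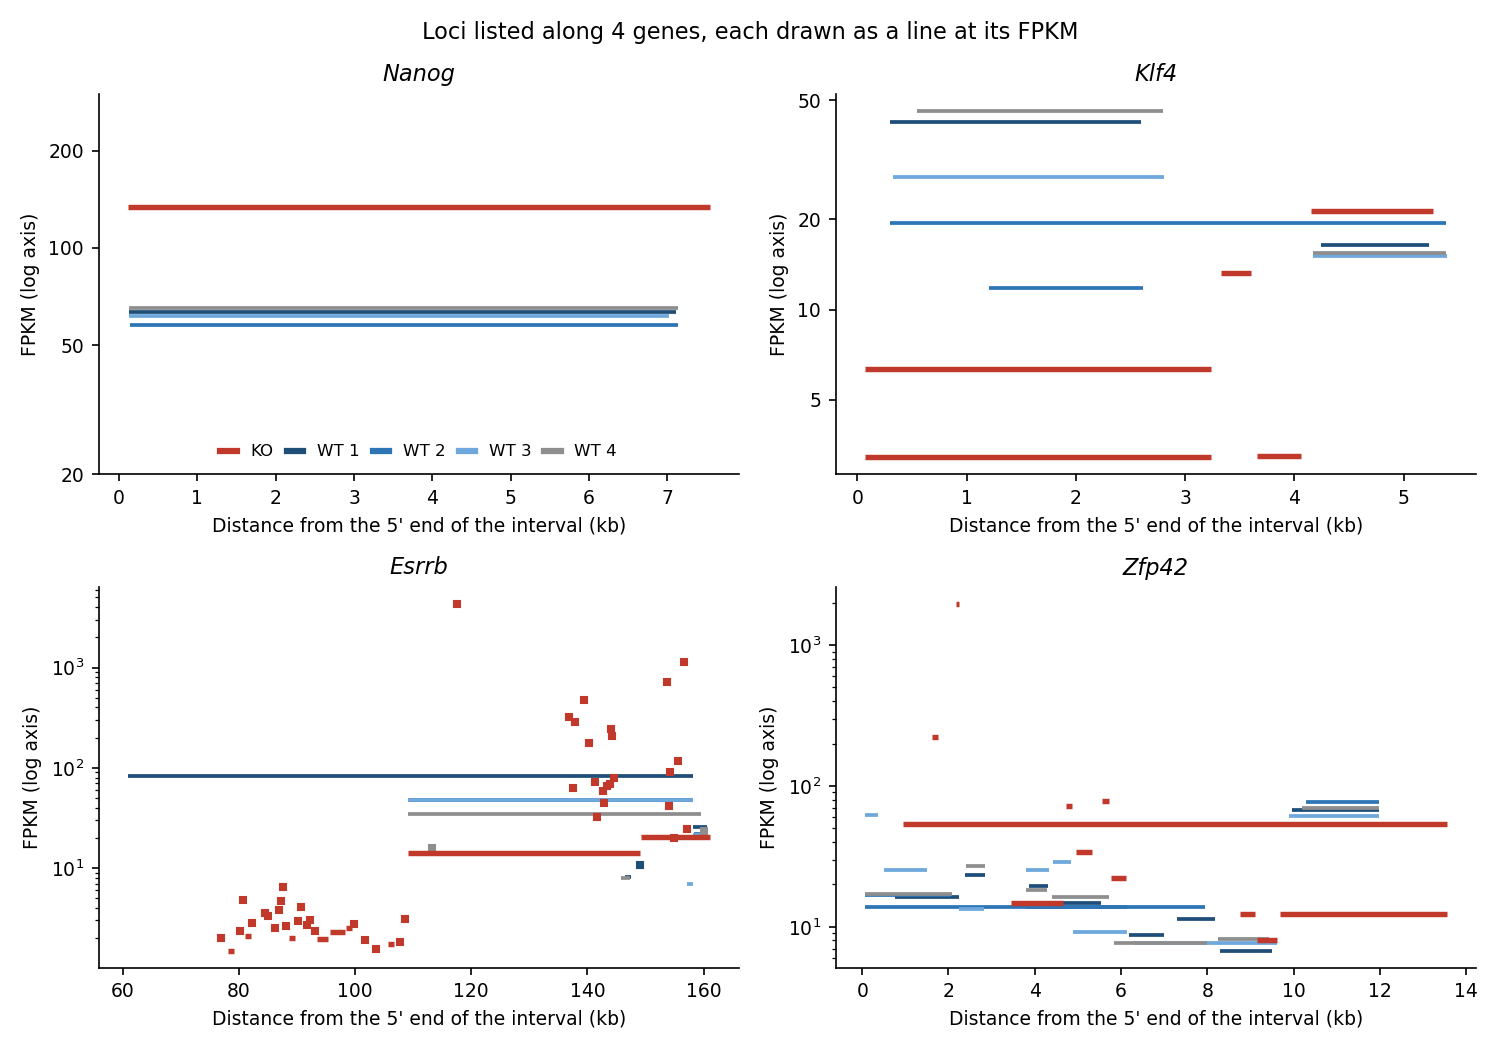
Every locus that the Srap1 KO table (red) and the 4 WT tables (blues and grey) list along Nanog, Klf4, Esrrb and Zfp42, drawn from end to end at its FPKM (log axis) by distance in kb from the gene's 5′ end; small squares are loci too short to draw as lines. Nanog has 1 locus per table, Klf4 and Zfp42 are split at different places in different tables, and Esrrb in KO is cut into 52 loci that run up to 4274 FPKM.

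Lin28a (chromosome 4, 133559300 to 133574700), the RNA-binding regulator of let-7, had 28.8 FPKM in KO (27.6 to 30.0). For WT 1 to WT 4 the values were 30.0 (21.2 to 38.9), 19.8 (12.8 to 26.8), 25.1 (17.1 to 33.1) and 18.7 FPKM (12.0 to 25.4). KO lay inside the WT range, with a log2 difference of 0.31. The leading locus held 100% of the fragments implied at Lin28a in KO and 38.9% to 48.3% in WT. At the end of the gene (133559708 to 133561051, 1344 bases) KO had 28.8 FPKM and WT 14.7, 13.9, 14.8 and 17.3 FPKM. KO lay above every WT table there, with a log2 difference of 0.89. The KO value is that of a single locus of 15760 bases, so it is not a separate level of the gene's end.

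On the bases covered in all 5 tables, the genes called were Nanog (higher in KO) and Klf4 and Esrrb (lower in KO). Nanog has 1 locus in each table, so its values could not differ from those of the leading locus. Of the 3208 regions that have bases covered in all 5 tables, 12.9% were called higher and 19.6% lower. Esrrb had 15.6 FPKM in KO and 80.3, 46.9, 46.3 and 34.7 FPKM in WT on this measure, a difference of -1.61. For Sox2, Sall4 and Lin28a the differences were 0.34, 0.01 and 0.48.

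The genes also differed in how they shared the fragments implied at all their loci, a measure that does not depend on a leading locus. These shares are not per length and sum to 100 in each table, so a higher share of 1 gene lowers the others. Nanog took 22.5% of 31117 fragments in KO and 11.7% to 14.6% of 1781 to 1872 fragments in WT, and Pou5f1 26.6% in KO and 21.4% to 22.5% in WT. Lin28a had 7.45% in KO and 3.96% to 5.06% in WT. In these 3 genes the KO share lay above all WT tables.

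Zfp42 had 8.32% of the fragments in KO and 17.8% to 22.1% in WT, and Klf4 2.74% in KO and 5.93% to 7.30% in WT. Sox2 (11.1% in KO, 12.2% to 13.0% in WT) and Sall4 (8.45% in KO, 9.40% to 10.5% in WT) were also below all WT tables, by less. The lowest WT share of Zfp42, 17.8% in WT 4, counts only 0.08 fragments for a locus of 17.0 FPKM with bounds of 0 to 138. The like WT 2 locus, of 16.9 FPKM, has 56.8. The 17.8% is thus too low, and the other WT 4 shares are too high to that extent. Esrrb, which was lower in KO by its leading locus, had 12.9% in KO and 9.81% to 12.4% in WT, above every WT table. The KO share of Esrrb counts separate loci from 87778602 to 87810844, before the first Esrrb locus of WT 2, WT 3 and WT 4. The place of the KO share above every WT table rests on counting these loci. By leading locus and by share alike, KO was below every WT table for Klf4 and above every WT table for Nanog. For Sox2 and Esrrb it lay on opposite sides of all WT tables by the 2 measures, for Esrrb only with those separate loci counted. For Pou5f1, Sall4, Zfp42 and Lin28a it lay inside the WT range by leading locus and outside it by share.

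**Figure D4:**
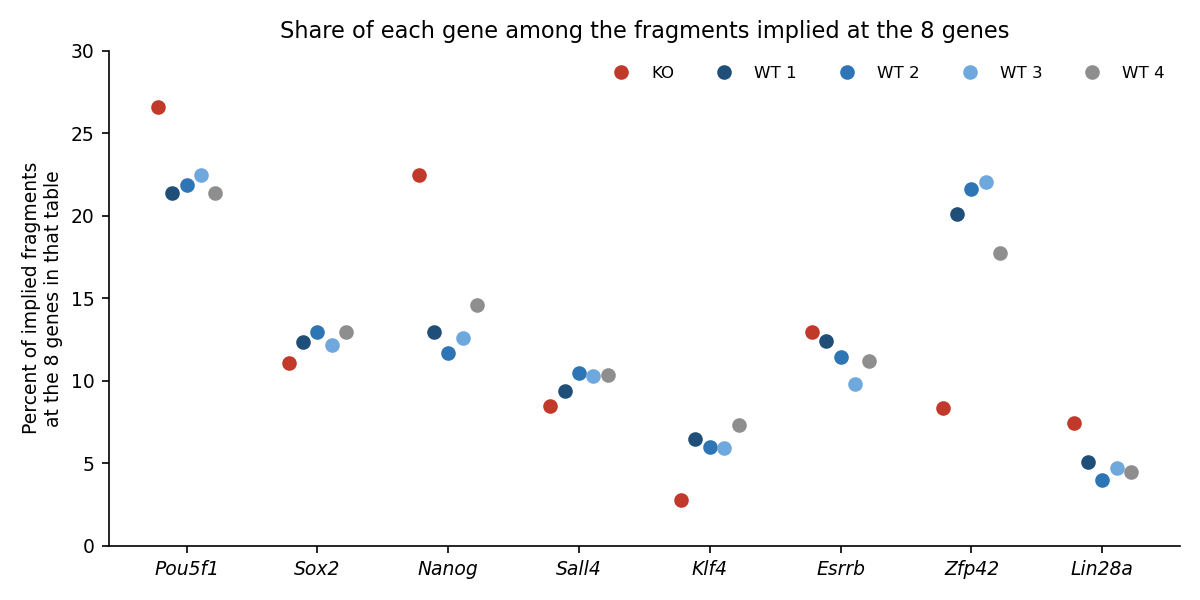
Share of each gene, in percent, among the fragments implied at all loci of the 8 genes, for the Srap1 KO table and the 4 WT tables; shares sum to 100 in each table. Nanog stands at 22.5% in KO and 11.7% to 14.6% in WT, and Zfp42 at 8.32% in KO and 17.8% to 22.1% in WT. The 17.8% is from WT 4 and is too low, because only 0.08 fragments are implied at a Zfp42 locus of 17.0 FPKM there.

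Within the KO table the order by FPKM was Pou5f1, Nanog, Sox2, Zfp42, Lin28a, Sall4, Esrrb and Klf4. All 7 pairs of neighbours had bounds that did not overlap. Of the 7 neighbouring pairs, 1 was apart in WT 1, 2 in WT 2, 3 in WT 3 and 4 in WT 4. Most of the WT order beneath Pou5f1 was thus not resolved by the bounds. The order is that of leading loci and depends on which locus leads. Zfp42 came last in WT 2, WT 3 and WT 4, where its end piece had 76.4, 61.2 and 70.0 FPKM. In KO, Klf4 came below Esrrb (14.3 FPKM) but has another locus at 21.3 FPKM. As a percent of the Pou5f1 level in the same table, Klf4 stood at 3.24% in KO and 10.8% to 23.5% in WT. Esrrb stood at 7.30% in KO and 17.8% to 43.8% in WT. Sox2 stood at 34.7% in KO and 25.3% to 30.9% in WT. For Sall4 (11.8% in KO, 10.6% to 12.5% in WT), Lin28a (14.7% in KO, 9.52% to 15.9% in WT) and Zfp42 (27.4% in KO, 3.93% to 35.7% in WT), KO lay inside the WT range.

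A different readout at the same positions came from KO DNA alone, precipitated with control IgG (IgG DIP), and the WT library of that kind named in the labels was not analysed here. Reads of mapping quality 30 or more were thinnest at Klf4, with 2.41 per kb (exact Poisson 95% interval 1.28 to 4.12, counting error only). They were densest at Pou5f1, with 5.71 per kb (3.80 to 8.26), and the autosomes as a whole had 2.93 per kb. Coverage by such reads was at most 4 at any base of the 8 genes. None of the 1730 windows of the IgG ChIP overlapped any of the 8 genes. Reads below quality 30, which include those that match several places, made up 32.7% at Nanog, 26.8% at Zfp42 and 17.7% at Pou5f1, the 3 genes with named copies, against 1.27% to 13.3% at the other 5 genes and 20.7% of all reads.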

How the data were processed

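The RNA tables hold loci with FPKM and its lower and upper bounds on build mm9, per the file headers. The authors' FPKM is scaled within a library and not between libraries. Cufflinks 2.2.1.0, Bowtie 0.12.8, Trim Galore 0.3.5 and MACS2 2.1.1 are named in the submitters' processing notes, with no settings. The IgG DIP file deposited by the authors gives 1 read per row with a mapping quality score, and the IgG ChIP file gives windows without values. Of the 31 samples described in the labels, the 8 with a file were used here.

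Members and lists were chosen with earlier results of these data known. All 8 genes were named and no other. Interval widths were 97.1% to 106.0% of the RefSeq gene lengths. Background regions were merged WT loci listed in all 4 WT tables. Fragments were computed as the square of FPKM over its standard error, taken as the distance to the upper bound divided by 2, and are approximate. Bases covered in all tables, their stretches, the 300-base minimum and the motifs TTTGCAT and ACAATG were added after the data were seen. Other genes of the network, and markers of feeder or differentiated cells, were not analysed here, because the tables pair no locus with a gene. Alternatives covered scaling, pseudocount, choice of locus, a filter at 10 FPKM, a 1.5-fold rule, each WT table left out, and limma 3.58.1 (R 4.3.3). The rule was tested on simulated data. Python 3.11.15, pandas 2.3.3, numpy 2.4.6 and scipy 1.17.1 were used.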

Additional observations from a re-analysis of the deposited data

Results flagged for a closer look

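Of the 8 genes, each examined as a group of 4 WT tables, 1 had a table far from the rest. Zfp42 had 67.4 FPKM in WT 1, while the other 3 WT tables had 7.63 to 13.9 FPKM. The gap between WT 1 and the rest took up more of the whole range than Dixon's critical value for 4 samples allows, a limit by which chance flags about 1 in 20 groups. In WT 1 the leading locus was the piece at the end of the gene, where the 4 WT tables had 61.2 to 76.4 FPKM.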

How the results depend on the processing

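No paired analysis was possible because the KO tables are identical and make 1 sample. The number of genes called was 3, and 3 to 4 with a WT table left out (Zfp42 was added without WT 1). It was 1 of the 3 genes still measured when the leading locus had to cover 50% of the interval (Nanog), and 1 with limma at an adjusted p of 0.05 (Klf4), which takes the WT tables as replicates with 3 residual degrees of freedom. The number of regions called was 1121, and 1131 to 1158 with a WT table left out. It was 364 of 927 with the 50% cover, 1800 with a 1.5-fold rule and 487 with limma. With the highest locus 3 genes were called higher in KO (Nanog, Esrrb and Zfp42, the last at 4.80) and 0 lower, and 1303 regions were higher in KO and 324 lower, and with the highest of at least 300 bases 499 and 457; Esrrb was 6.37 with the first and -1.27 with the 300-base minimum, where Klf4 was -0.57 and Zfp42 -0.35. Nanog was higher in KO in 13 of 13 alternatives (0.70 to 1.20), Klf4 lower in 12 of 12 (-2.41 to -0.57) and Lin28a higher in 12 of 12 (0.22 to 0.48), though not called. Pou5f1 and Nanog had 1 locus in each table, so the choice of locus could not change their differences. The filter at 10 FPKM could change no gene's difference. The direction held for Pou5f1 and Sox2 in 12 of 13, for Esrrb and Zfp42 in 11 of 12 and for Sall4 in 9 of 12. Median scaling moved all differences by 0.10 and changed no gene's call. The order of the lower genes in WT is limited by the width of the bounds and by which locus leads. The cause of these shifts was not tested.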
